A study of Mus musculus with 6 samples.

Results

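The 35 genes described here encode the transcription factor NRF2 (gene Nfe2l2), its control proteins, and enzymes that remove peroxides, make and use glutathione and thioredoxin, or supply NADPH. They were chosen by gene name from a deposited table of 55098 genes, and all 35 were found there and passed the filter on low counts, which left 17142 genes for testing. Sod2, the manganese superoxide dismutase of mitochondria, was left out of the list. The RNA-seq libraries came from 6 male mice aged 60 postnatal days, and the tissue was whole cerebellum. Wild-type mice (WT, animals 1, 3 and 5) carried the intact Slc39a14 gene, and the other mice were labelled Slc39a14 knock-out (KO, animals 2, 4 and 6), with 1 library per animal. Slc39a14 encodes ZIP14, a carrier of manganese, iron and zinc, and the series names the KO mouse as a model of childhood-onset dystonia parkinsonism due to manganese. The sources used here do not give the strain, the part of the gene that is lost or the cells that lose it.

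NRF2 is held in the cytosol by KEAP1, which hands it to a ubiquitin ligase for breakdown. Electrophiles and oxidants modify cysteines of KEAP1, NRF2 then enters the nucleus with a small MAF protein, and the pair binds antioxidant response elements near its target genes. In the brain, NRF2 activity is best known from astrocytes, which pass glutathione precursors to neurons, while peroxiredoxins and glutathione peroxidases are present in most cells.

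The libraries held 13805997 to 15788135 gene counts. Slc39a14 itself had 572 to 654 counts in every library and did not separate the groups (log2 fold change -0.0035, SE 0.11), so that the gene count does not check the genotype labels, and KO below means the libraries labelled so. Across all genes 8 were called at an adjusted p under 0.05 (edgeR quasi-likelihood test, Benjamini-Hochberg adjustment), and 7 of them are on a list of 12 interferon response genes. These 7, all higher in KO, were Ifi27, Lgals3bp, Oasl2, Ifit3, Ifit1, Usp18 and Ifi27l2a. The list was chosen with earlier results of these data known, so its overlap with the called genes is not independent of them. On the leading principal component of 1000 genes, which held 29.6% of their variance, WT 5 and KO 4 were separate from the rest. Component 2 held 26.9%, and on it WT 1, 3 and 5 (10.3, 14.5 and 17.4) lay apart from KO 2, 4 and 6 (-16.7, -17.6 and -7.84). Markers of cerebellar granule cells and Purkinje cells were abundant, with Gabra6 at a mean of 359 FPKM and Car8 at 307 FPKM (counts scaled to gene length and library size). All libraries are bulk tissue, in which fewer cells of a type and less RNA per cell cannot be told apart.

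The antioxidant response element is what ties many of these genes to NRF2, so the windows from 250 bases before to 50 bases after the RefSeq gene starts (GRCm38.p6) were searched for it on both strands. A window was available for 29 of the 35 genes. The core of the element, spelled TGACNNNGC or TGAGNNNGC, was in a window of 14 of the 29 genes, and in 30.8% of all 27025 genes with a window. The stricter spellings TGACTCAGC and TGAGTCAGC, each of which contains a whole AP-1 site (TGACTCA or TGAGTCA), were in 4 of the 29 genes and in 0.929% of all genes. The 61 bases around each of these 4 matches are shown with the match in capitals, because they are the closest in sequence to the element that NRF2 and small MAF proteins bind.
Me1 (chr9:86695886-86695946, minus strand): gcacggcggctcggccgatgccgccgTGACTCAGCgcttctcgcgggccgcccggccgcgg
Prdx1 (chr4:116685440-116685500, minus strand): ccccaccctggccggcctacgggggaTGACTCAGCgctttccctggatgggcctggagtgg
Gstp1 (chr19:4037952-4038012, minus strand): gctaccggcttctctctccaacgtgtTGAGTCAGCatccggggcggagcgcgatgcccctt
Srxn1 (chr2:152105453-152105513, plus strand): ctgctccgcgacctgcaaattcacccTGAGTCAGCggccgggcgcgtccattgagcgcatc
The match spans the start of Me1 (bases -6 to 2 from the start) and lies upstream of the starts of Srxn1 (-45 to -37), Gstp1 (-74 to -66) and Prdx1 (-133 to -125). A match is a string of letters and not a measured binding site.

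None of the 35 genes was called as different between KO and WT. The edgeR fit called 0 of them, as did DESeq2 and limma-voom. Of all genes tested edgeR called 0.0467%, and the smallest edgeR adjusted p among the 35 was 1.0. At an unadjusted p under 0.05 the count was also 0 of 35, against 2.75% of all genes, with a smallest unadjusted p of 0.0906 for Hmox1. The authors' deposited table called 0 of the 35 as well, against 0.128% of its 29692 genes with a value. Of the 35 log2 fold changes 21 were positive and 14 negative with a median of 0.017, and over all genes tested 8372 were positive and 8770 negative with a median of -0.0036. The values ran from -0.17 for Glrx to 0.49 for Hmox1, and 23 of 35 lay within 0.1 of 0.

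The intervals show how large a difference could have gone unseen. For 32 of the 35 genes the 95% interval of the fold change lay inside 1.5-fold in either direction, against 60.5% of all genes tested. The exceptions were Hmox1, Blvrb and Slc7a11. The 35 genes are better measured than most, with a median level of 50.2 CPM (counts scaled to library size after TMM) against 18.9 CPM for all genes tested, and a median SE of 0.12 against 0.17. The groups of libraries failed to overlap for 1 of the 35 genes, Gsr, which was lower in KO. Over all genes tested 7.26% did not overlap in either direction.

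**Figure D1:**
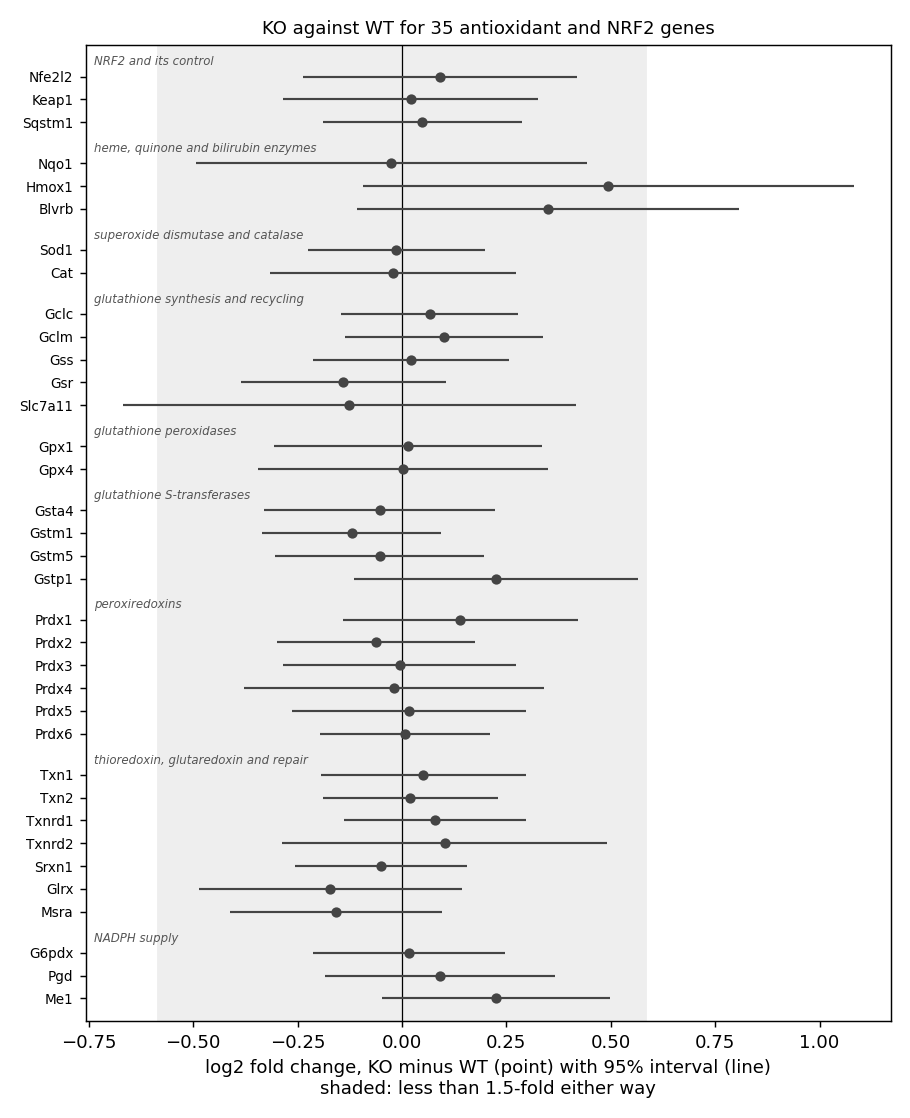
Log2 fold change of each of the 35 genes (x axis, KO minus WT, points) with its 95% interval (lines), ordered by role. The shaded band marks less than 1.5-fold in either direction; 32 intervals lie inside it, and every interval crosses 0.

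NRF2 and its control proteins had log2 fold changes smaller than their SE. Nfe2l2 (chromosome 2, 75675513 to 75704641) measured 16.6, 19.8 and 18.4 CPM in the WT animals 1, 3 and 5, against 18.9, 22.5 and 17.0 in the KO animals 2, 4 and 6. The ranges overlapped, with WT 1 the lowest library and KO 4 the highest (log2 fold change 0.092, SE 0.15). Keap1, the inhibitor, measured 43.3, 50.03 and 35.9 CPM in the WT animals 1, 3 and 5, against 46.0, 39.9 and 45.2 in the KO animals 2, 4 and 6 (0.021, SE 0.14). Both the lowest and the highest library were WT. Sqstm1 encodes p62, an autophagy receptor that can sequester KEAP1, and averaged 258 ± 23.6 CPM over WT and 267 ± 24.6 over KO (SD, n = 3 each), a log2 fold change of 0.049 with an SE of 0.11. By FPKM, a scale that allows for gene length, Sqstm1 was at 74.5, behind only Gpx4 and Gstm1, and Nfe2l2 ranked 28 of 35 (4.74).

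The heme, quinone and bilirubin enzymes, among them the NRF2 targets Nqo1 and Hmox1, were the least abundant group. Nqo1, a quinone reductase, measured 5.37, 6.64 and 7.70 CPM in the WT animals 1, 3 and 5, against 7.05, 6.91 and 5.39 in the KO animals 2, 4 and 6. The lowest and the highest library were both WT, and the log2 fold change was -0.026 (SE 0.21, 95% interval of the fold 0.710 to 1.36). Hmox1, the inducible heme oxygenase, had the largest log2 fold change of the 35 genes and the lowest FPKM. It measured 2.18, 2.49 and 3.01 CPM in the WT animals 1, 3 and 5, against 2.83, 3.84 and 4.16 in the KO animals 2, 4 and 6. KO 4 and KO 6 lay above every WT library and KO 2 lay below WT 5 (log2 fold change 0.49, SE 0.26, unadjusted p = 0.0906, edgeR adjusted p = 1.0). With single libraries left out the log2 fold change of Hmox1 ran from 0.38 (without KO 6, unadjusted p = 0.245) to 0.65 (without KO 2, unadjusted p = 0.0486), and the gene was not called. The counts of Hmox1 were as low as 30 in a library, and the 95% interval of the fold reached from 0.937 to 2.12.

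Blvrb, a flavin and biliverdin reductase, measured 6.02, 6.13 and 7.33 CPM in the WT animals 1, 3 and 5, against 6.54, 9.77 and 8.54 in the KO animals 2, 4 and 6. The order was like that of Hmox1, with KO 2 below WT 5 (log2 fold change 0.35, SE 0.20, unadjusted p = 0.119). With single libraries left out the value of Blvrb ran from 0.22 (without KO 4, unadjusted p = 0.336) to 0.50 (without KO 2, unadjusted p = 0.0423), and the gene was not called. Microglia markers were positive in 9 of 9, from 0.0013 for P2ry12 to 1.01 for Ctss, none of them called, and their summed level was 114 to 124 CPM in WT and 143 to 183 CPM in KO. Choroid plexus markers were positive in 12 of 12, also with none called, with sums of 449 to 1384 CPM in WT and 1055 to 3283 CPM in KO, the highest being KO 4. No marker of either list was at 0 in all libraries, and the part of these cells in the values of Hmox1 and Blvrb was not tested.

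Superoxide dismutase and catalase act in sequence, from superoxide to hydrogen peroxide to water. Sod1, the copper and zinc enzyme of the cytosol, averaged 96.2 ± 2.87 CPM over WT and 95.4 ± 6.73 over KO (SD, n = 3 each), a log2 fold change of -0.013 with an SE of 0.095. Cat, the peroxisomal catalase, was at 44.4 ± 4.61 and 43.8 ± 5.84 CPM (-0.021, SE 0.13). The 95% interval of the fold for Sod1 was 0.856 to 1.15.

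Glutathione is built by glutamate-cysteine ligase (Gclc, catalytic, and Gclm, modifier) and glutathione synthetase (Gss), and its oxidised form is reduced by Gsr. Gclc averaged 76.2 ± 4.35 CPM over WT and 79.8 ± 3.07 over KO, Gclm 108 ± 9.74 and 116 ± 9.21 CPM, and Gss 55.5 ± 1.72 and 56.4 ± 5.06 CPM (SD, n = 3 each). Their log2 fold changes were 0.067, 0.10 and 0.023, each smaller than its SE (0.095, 0.11 and 0.11). Gsr measured 38.3, 38.3 and 40.3 CPM in the WT animals 1, 3 and 5, against 32.0, 36.9 and 37.3 in the KO animals 2, 4 and 6. Every KO library lay below every WT library and the gene was not called (log2 fold change -0.14, SE 0.11, unadjusted p = 0.233, edgeR adjusted p = 1.0). Without KO 2 the value was -0.070.

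Slc7a11, the cystine importer that limits glutathione supply, varied most of the 35 genes between libraries of a group, with a coefficient of variation of 29.4%. The median of the 35 was 9.19%, and that of all genes tested was 14.6%. It measured 41.3, 46.5 and 41.4 CPM in the WT animals 1, 3 and 5, against 27.0, 58.7 and 32.7 in the KO animals 2, 4 and 6. KO 2 and KO 6 lay below every WT library and KO 4 lay above all of them. With all libraries the log2 fold change was -0.13 (SE 0.24). Without KO 4 it was -0.53 (unadjusted p = 0.00328, edgeR adjusted p = 0.859), and with WT 5 and KO 4 both left out the adjusted p was 0.281, so that the gene was not called in any fit. KO 4 was also the library with the most choroid plexus RNA by the marker sum, and the part of that tissue was not tested.

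**Figure D2:**
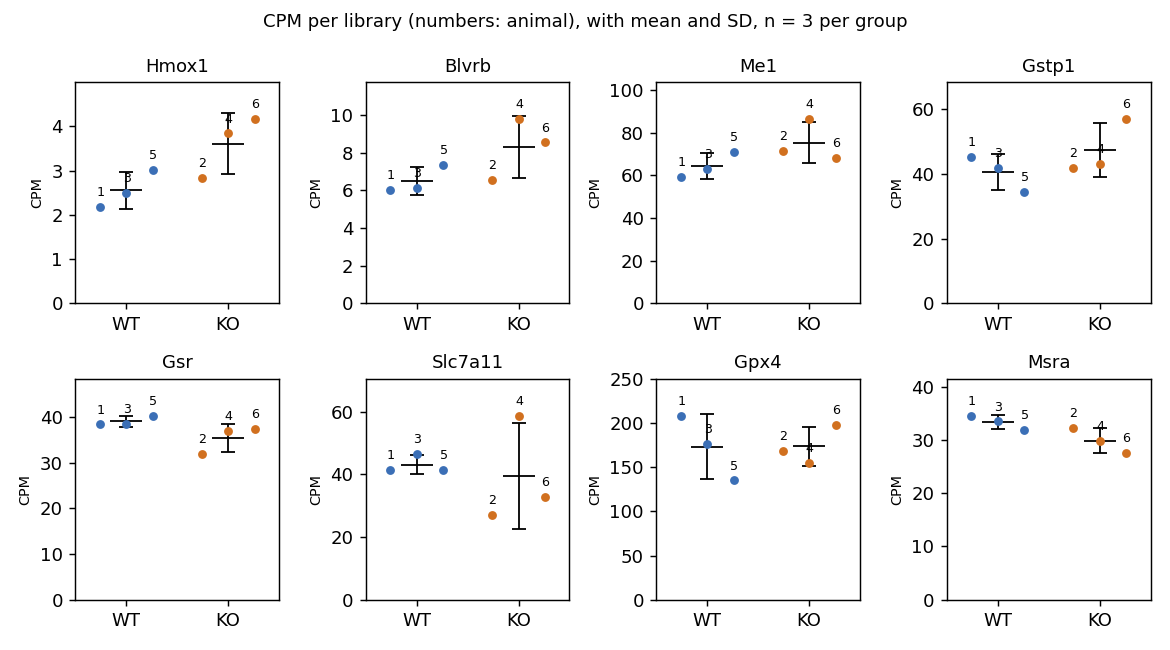
CPM of 8 of the genes in each library (y axis from 0; points, numbered by animal), with the mean (horizontal bar) and SD (error bar), n = 3 per group. The groups overlap in every panel but Gsr, and KO 4 stands above all libraries for Slc7a11, Me1 and Blvrb.

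Glutathione peroxidases differed more in level from each other than between the groups. Gpx4, which reduces lipid peroxides in membranes and guards against ferroptosis, was the most abundant of the 35 genes by FPKM (95.9). Gpx1, the cytosolic enzyme for hydrogen peroxide, was at 27.8 FPKM. Gpx4 measured 209, 176 and 135 CPM in the WT animals 1, 3 and 5, against 169, 155 and 198 in the KO animals 2, 4 and 6, and WT libraries were both the lowest and the highest (log2 fold change 0.0026, SE 0.16). The transcripts of Gpx4 share 34.7% of their 50-base windows with its processed copy Gpx4-ps2, which had 367 to 531 counts per library against 1841 to 2874 for Gpx4. How many reads were assigned to the wrong copy was not measured, and the count of Gpx4 is uncertain. Gpx1 averaged 41.8 ± 7.09 CPM over WT and 42.2 ± 3.94 over KO (SD, n = 3 each; 0.013, SE 0.14).

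Glutathione S-transferases join glutathione to electrophiles. Gstm1, of the mu class, was the second most abundant of the 35 genes (89.2 FPKM), and averaged 144 ± 5.07 CPM over WT and 132 ± 10.9 over KO (SD, n = 3 each), a log2 fold change of -0.12 with an SE of 0.096. KO 6 lay within the WT range. Gstm5 and Gsta4, the latter acting on the lipid peroxidation product 4-hydroxynonenal, were at -0.053 and -0.054 on the log2 scale (SE 0.11 and 0.12). Gstp1, of the pi class, measured 45.2, 41.9 and 34.3 CPM in the WT animals 1, 3 and 5, against 41.9, 43.2 and 56.9 in the KO animals 2, 4 and 6. KO 6 alone lay above the WT libraries (log2 fold change 0.23, SE 0.15, unadjusted p = 0.169), and without KO 6 the value was 0.072. The deposited FPKM of Gstp1 uses a gene length of 757 bases where GENCODE M21 has 1548 exonic bases, so its FPKM would be lower with the longer length. On the deposited FPKM Gstm1 made up 46.4% ± 0.813 of the transferases in WT and 42.8% ± 1.55 in KO. Gstp1 made up 25.4% ± 2.39 and 29.7% ± 3.38. For Gstm1 and Gstp1 the shares of the groups differed by more than the SD between libraries, and for Gstm5 and Gsta4 by less. The shares depend on the length used for Gstp1 and were not tested. Gstp1 shares 33.7% of its 50-base windows with Gstp2, which had 0 to 5 counts per library, and Gstm1 shares 18.9% with its relatives, mostly Gstm2-ps1.

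Peroxiredoxins are the thiol peroxidases that remove most hydrogen peroxide in cells. They had the highest mean summed level per length of the role groups (208 ± 15.1 FPKM summed in WT and 208 ± 5.22 FPKM in KO, SD, n = 3 each). The 4 glutathione S-transferases were close, at 201 ± 9.58 FPKM in WT and 199 ± 12.5 FPKM in KO, and were higher in KO 6 (212 against 211 FPKM). The sums depend on how many genes a group lists, 6 for the peroxiredoxins. Prdx5, found in mitochondria, peroxisomes and cytosol, made up 27.1% ± 1.85 of the peroxiredoxin sum in WT and 27.2% ± 3.02 in KO. The cytosolic Prdx2 made up 23.3% ± 1.24 and 22.1% ± 1.32. The mitochondrial Prdx3, with 17.3% ± 1.69 and 17.1% ± 1.08, and Prdx1, with 15.9% ± 1.86 and 17.3% ± 2.93, did not differ from each other beyond their spread. Prdx4, of the endoplasmic reticulum, was the smallest part with 2.99% ± 0.353 and 2.93% ± 0.169. For each of these 5 members the shares of the groups differed by less than the SD between libraries. Prdx1, a cytosolic enzyme and a known NRF2 target, measured 111, 92.1 and 111 CPM in the WT animals 1, 3 and 5, against 108, 134 and 104 in the KO animals 2, 4 and 6. KO 4 alone lay above the WT libraries (log2 fold change 0.14, SE 0.13, unadjusted p = 0.292), and without KO 4 the value was 0.022. Prdx2, Prdx3, Prdx4, Prdx5 and the 1-cysteine enzyme Prdx6 lay between -0.062 and 0.018 on the log2 scale.

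Thioredoxins reduce the peroxiredoxins and are themselves reduced by thioredoxin reductases with NADPH. The cytosolic Txn1 and the mitochondrial Txn2 had log2 fold changes of 0.051 (SE 0.11) and 0.020 (SE 0.094), and the reductases Txnrd1 and Txnrd2 of 0.080 (SE 0.097) and 0.10 (SE 0.17). The cytosolic forms made up 64.4% ± 0.397 of thioredoxin FPKM and 81.1% ± 1.28 of reductase FPKM in WT, and 64.9% ± 1.93 and 80.9% ± 1.69 in KO (SD, n = 3 each). Srxn1, sulfiredoxin, which repairs overoxidised peroxiredoxins, averaged 93.8 ± 2.56 CPM over WT and 90.6 ± 5.34 over KO (-0.049, SE 0.092).

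Glrx, glutaredoxin 1, and Msra, which repairs oxidised methionine, had the most negative values of the 35 genes. Glrx measured 21.9, 21.6 and 17.02 CPM in the WT animals 1, 3 and 5, against 18.7, 17.04 and 17.95 in the KO animals 2, 4 and 6. WT 5 was the lowest library (log2 fold change -0.17, SE 0.14, unadjusted p = 0.252). Msra measured 34.6, 33.4 and 31.9 CPM in the WT animals 1, 3 and 5, against 32.3, 29.7 and 27.5 in the KO animals 2, 4 and 6, and KO 2 lay above WT 5 (-0.16, SE 0.11, unadjusted p = 0.195). On the deposited FPKM scale every KO value of Msra was under every WT value. The value of Glrx was -0.11 without WT 1 and -0.28 without WT 5, and that of Msra was -0.10 without KO 6. Msra lies on chromosome 14 (64122625 to 64455903), 5.85 Mb from Slc39a14. Granule cell markers were negative in 5 of 5, none of them called, with sums of 4180 to 4241 CPM in WT and 3716 to 3930.1 CPM in KO, and their part in these values was not tested.

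Of the genes that supply NADPH, G6pdx and Pgd belong to the pentose phosphate pathway and Me1 is cytosolic malic enzyme. G6pdx averaged 51.1 ± 4.08 CPM over WT and 51.7 ± 0.827 over KO (SD, n = 3 each), a log2 fold change of 0.017 with an SE of 0.10, and Pgd was at 0.091 (SE 0.12). Me1 measured 59.2, 63.04 and 71.1 CPM in the WT animals 1, 3 and 5, against 71.4, 86.3 and 68.2 in the KO animals 2, 4 and 6. KO 6 lay below WT 5, and the other KO libraries lay above every WT library (log2 fold change 0.23, SE 0.12, unadjusted p = 0.0955, edgeR adjusted p = 1.0). The value rested in part on KO 4: without that library it was 0.12 (unadjusted p = 0.321), and without WT 5 it was 0.30 (unadjusted p = 0.039). With a term for WT 5 and KO 4 the unadjusted p was 0.0081 and the edgeR adjusted p 0.615. That term marks the libraries seen to be separate on the leading principal component of the same data. With it 1029 of all 17142 genes had an unadjusted p under 0.05, against 471 in the fit reported. Transcripts of Me1 share 22.9% of their 50-base windows with other genes, mostly the copy Gm7049, which had 1 to 5 counts per library.

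**Figure D3:**
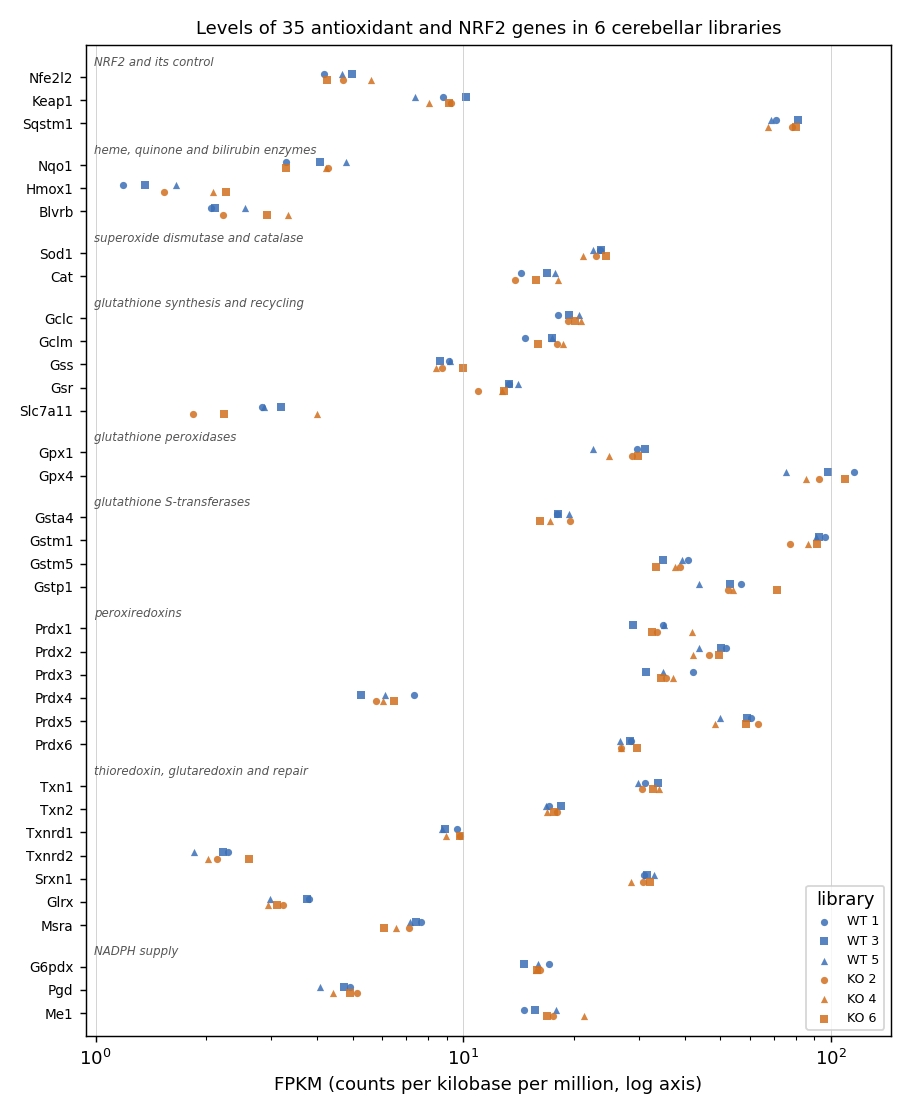
FPKM of each of the 35 genes (x axis, log scale) in each library, ordered by role (blue, WT; orange, KO; the shape marks the library). Levels run from about 1.68 FPKM for Hmox1 to 95.9 FPKM for Gpx4, and the 2 colours overlap for every gene but Gsr and Msra; on the CPM scale Msra overlaps too.

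The 4 genes with a strict response element in their window were Me1 (log2 fold change 0.23), Gstp1 (0.23), Prdx1 (0.14) and Srxn1 (-0.049). With single libraries left out the values ran from 0.12 to 0.30 for Me1 and 0.072 to 0.31 for Gstp1. The ranges were 0.022 to 0.21 for Prdx1 and -0.087 to -0.00033 for Srxn1. The values nearest 0 came without KO 4 for Me1, Prdx1 and Srxn1, and without KO 6 for Gstp1. The 25 other genes with a window had 15 positive values and a median of 0.017. For the 14 genes with the core element 10 values were positive and the median was 0.085, and for the 15 genes without it 8 were positive and the median was 0.0026. These are descriptions, without a test. The window does not cover distant elements.

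The level of the 35 genes in WT 5 and in KO 4 was set against the rest of their groups. Both libraries were separate on the leading principal component of the same data, so that agreement between them is not independent of that choice. Other libraries were not compared in this way. For each gene the log2 of CPM plus 0.5 in WT 5 was compared with the mean of WT 1 and WT 3, and that in KO 4 with the mean of KO 2 and KO 6. Both differences were negative for 17 genes, both positive for 11 and opposite for 7. Among 15869 tested genes of at least 1 CPM the shares were 36.7%, 35.1% and 28.2%. Across the 35 genes the differences had a Pearson r of 0.57 and a Spearman rho of 0.77, against 0.37 and 0.49 across the 15869 genes, as a description over genes that share the same libraries. WT 5 was the lowest WT library and KO 4 the lowest KO library for 13 genes: Keap1, Sqstm1, Sod1, Gpx1, Gpx4, Prdx2, Prdx5, Prdx6, Txn2, Txnrd1, Txnrd2, Glrx and Pgd. Blvrb, Cat, Gclc and Me1 were highest in both.

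The differences were correlated with the base composition of the transcripts. In WT 5 their Pearson r with the GC content of the longest GENCODE M21 transcript was -0.50 across the 35 genes and -0.55 across the 15869 genes. In KO 4 it was -0.64 and -0.53. Gpx4, with 60.2% GC, had log2 differences of -0.50 in WT 5 and -0.24 in KO 4. Prdx1, with 42.3% GC, had differences of 0.13 and 0.34. The longest transcripts of the 35 genes had a median GC content of 49.2%, close to the 49.4% of the 15869 genes. The cause of the GC relation was not tested. WT 5 and KO 4 are in different groups, and with both left out 0 of the 35 genes were called and their median log2 fold change was 0.015.

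**Figure D4:**
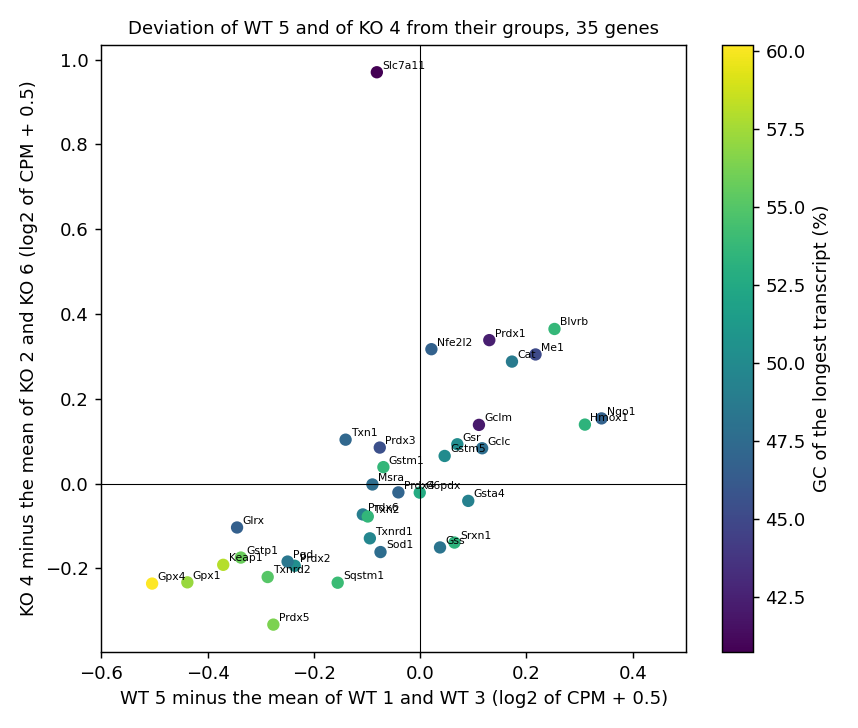
Difference of WT 5 from the mean of WT 1 and WT 3 (x axis) against the difference of KO 4 from the mean of KO 2 and KO 6 (y axis), on the log2 of CPM plus 0.5, for the 35 genes, coloured by the GC content of the longest transcript. Gpx4, Gpx1 and Keap1 are low in both and Slc7a11 stands apart at the top.

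Around the 35 genes, 6 further lists of the pathway were read in the same fit. None of their 96 tested genes was called, against 0.0467% of all genes tested. Of 13 NRF2 partners and regulators 5 were positive and 8 negative (median -0.077), with Nfe2l1, an NRF2 relative, at 0.0060 and the ligase scaffold Cul3 at -0.083. Bach2, a repressor that competes at response elements, had all its KO values under its lowest WT value (-0.28, SE 0.13, unadjusted p = 0.0501). In this list the groups did not overlap for 2 genes lower in KO and 0 genes higher, against 7.26% of all genes tested in either direction. Of 30 tested other glutathione genes 14 were positive (median -0.0070), with Glo1, glyoxalase, at -0.012, Mgst3 at -0.068 and the secreted peroxidase Gpx3 at -0.41 (SE 0.21). Of 21 other thioredoxin, glutaredoxin and methionine sulfoxide genes 9 were positive (median -0.017), with the selenoproteins Selenow at -0.041 and Selenom at -0.0036 and the ubiquinone reductase Aifm2 at -0.29 (SE 0.16). Of 7 tested other NADPH genes 6 were positive (median 0.062), with Taldo1 at 0.081, Tkt at 0.015 and Pgls at 0.17. Among the other glutathione genes the groups did not overlap for 1 gene higher in KO and 2 lower, with Gpx3 lower. Among the other thioredoxin, glutaredoxin and methionine sulfoxide genes they did not overlap for 2 higher and 1 lower, Aifm2.

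Other NRF2 targets gave 10 positive and 5 negative values among 15 tested genes (median 0.035), with the heme transporter Slc48a1 at 0.047 and the epoxide hydrolase Ephx1 at 0.18. The groups of libraries did not overlap for 2 genes higher in KO and for 2 genes lower in KO, against 7.26% of all genes tested in either direction. Among genes of at least 1 CPM in these lists the smallest unadjusted p was that of Esd, which releases formate from S-formylglutathione. Esd measured 30.4, 23.5 and 24.1 CPM in the WT animals 1, 3 and 5, against 39.1, 45.2 and 34.2 in the KO animals 2, 4 and 6. The lowest KO value exceeded the highest WT value (log2 fold change 0.60, SE 0.15, unadjusted p = 0.00229, edgeR adjusted p = 0.777). Esd lies on chromosome 14 (74732297 to 74750765), 4.38 Mb from Slc39a14, and Esd and Msra were the genes of these lists nearest to it. Whether the position bears on the level was not tested. Of the 10 tested genes of superoxide and heme handling and NADPH oxidases 7 were positive (median 0.18), with the constitutive heme oxygenase Hmox2 at 0.039 and the copper chaperone of SOD1, Ccs, at -0.039.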

How the data were processed

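The members and the gene lists were chosen with earlier results of these data known. A single deposited table gives, per gene, raw counts and FPKM for 6 libraries, and the authors' group means (a signal: counts over size factors), log2 fold changes and p-values for KO against WT. The submitters' processing notes name HISAT2, DESeq2 and the build GRCm38.p6 but no version, and the sources used here give neither the counting program nor its strand setting. The deposited FPKM equal the counts divided by gene length and 1 constant per library.

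Group and animal number came from the sample titles. Differences were fitted over all genes by edgeR 4.0.16 under R 4.3.3 (quasi-likelihood F test, TMM, filterByExpr, Benjamini-Hochberg adjustment over 17142 genes, calls at 0.05). Each SE was obtained by dividing the size of the log2 fold change by the square root of F, and 95% intervals use the test's degrees of freedom. 1 count was worth 0.0629 to 0.0733 CPM. The steps were tested on simulated data. Alternatives were DESeq2 1.42.0, limma-voom (limma 3.58.1), other scalings and filters, and libraries left out. All 35 members are named, and of every other list the called genes, or else the 2 with the highest FPKM, and the 1 with the smallest p of at least 1 CPM; 2 genes under this rule are not reported here. Genes named outside it (Cyba, Ncf1 and the microglia markers other than Ctss) were chosen after their values were seen. Exon overlaps and shared 50-base windows come from GENCODE M21, and gene-start windows from RefSeq (GRCm38.p6). Sequences were read in Python 3.11.15.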

Additional observations from a re-analysis of the deposited data

How the results depend on the processing

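No paired analysis was run, because the sources used here state no pairing of WT with KO animals. None of the 35 genes was called under any of the 16 alternatives, and the smallest adjusted p was 0.281 (Slc7a11 with WT 5 and KO 4 both left out). The median of the 35 genes moved by less than the spread between libraries, from -0.010 to 0.036 with single libraries left out. The count of genes called over the whole table was less stable: 8 in the fit reported, 142 without the low-count filter, 38 by DESeq2 (run without that filter), 40 with WT 5 and KO 4 left out, 34 with a term for them, and 0 to 28 with single libraries left out (0 without WT 1 or WT 3, 28 without WT 5, 2 without KO 2, 17 without KO 4, 3 without KO 6).

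Of the 35 genes 21 changed sign under some alternative, in 48 of 560 values. The largest absolute value at a change of sign was 0.15. With library totals alone, Sod1 was at 0.0046 and Prdx3 at 0.012; Prdx3 was at 0.0025 with upper quartile scaling, 0.00019 without the filter and 0.0069 by limma-voom. With WT 5 and KO 4 left out the values were -0.016 for Nfe2l2, -0.031 for Keap1, 0.053 for Nqo1, 0.020 for Srxn1, -0.043 for Gpx1, -0.070 for Gpx4, 0.017 for Sod1, -0.00011 for Prdx6 and -0.028 for Txn1. With single libraries left out the ranges were -0.020 to 0.18 for Nfe2l2, -0.092 to 0.15 for Keap1, -0.15 to 0.10 for Nqo1, -0.015 to 0.18 for Txnrd2, -0.12 to 0.11 for Gpx1, -0.15 to 0.16 for Gpx4, -0.061 to 0.043 for Sod1, -0.12 to 0.071 for Cat, -0.13 to 0.0039 for Prdx2, -0.092 to 0.13 for Prdx3, -0.12 to 0.12 for Prdx4, -0.067 to 0.12 for Prdx5, -0.040 to 0.036 for Prdx6, -0.051 to 0.076 for Gss, -0.13 to 0.0077 for Gsta4, -0.11 to 0.010 for Gstm5, -0.010 to 0.069 for Txn2, -0.53 to 0.087 for Slc7a11 and -0.034 to 0.078 for G6pdx. The cause of these changes of sign was not tested. Depth limits Hmox1 most, at 30 counts in its lowest library.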

Other observations

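The phagocyte NADPH oxidase, which makes superoxide, was low in these libraries, and Cyba and Ncf1 were named here after their values were seen. Cybb, the catalytic subunit, measured 0.363, 0.191 and 1.61 CPM in the WT animals 1, 3 and 5, against 1.32, 3.63 and 3.02 in the KO animals 2, 4 and 6. KO 2 lay below WT 5 (log2 fold change 1.89, SE 0.66, unadjusted p = 0.0172, edgeR adjusted p = 1.0). Cyba, its membrane partner, measured 2.40, 2.74 and 1.61 CPM in the WT animals 1, 3 and 5, against 3.27, 2.86 and 3.81 in the KO animals 2, 4 and 6, with no overlap of the groups (log2 fold change 0.55, SE 0.28, unadjusted p = 0.0805). Such a lack of overlap, in either direction, was seen for 7.26% of all genes tested. Ncf1, a cytosolic subunit, had a log2 fold change of 0.72 (SE 0.34) and its groups overlapped. None of these 3 genes was called. Of the microglia markers Ctss was at 1.01 (SE 0.20, edgeR adjusted p = 0.276), C1qa at 0.77 and Tmem119 at 0.64, while Csf1r was at 0.19, Cx3cr1 at 0.11 and P2ry12 at 0.0013 on the log2 scale. None was called, and their part in the oxidase values was not tested.

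Some of the 35 genes share exonic bases with a gene on the opposite strand, and no source used here states whether reads were counted by strand. The overlap covered 19.1% of the exonic bases of Prdx5 (with Trmt112), 17.3% of Sqstm1 (with Mrnip), 15.4% of Gss, 13.9% of Gstm5, 13.6% of G6pdx (with Ikbkg), 11.5% of Prdx2 and 10.9% of Keap1. How many counts fall in these overlaps was not measured.

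Marker genes of other cells are given as log2 fold changes, none of them called. Those of the choroid plexus were 1.76 for Ttr, 1.16 for Enpp2 and 1.38 for Cldn2, and those of meningeal fibroblasts 0.27 for Dcn, 0.19 for Slc6a13 and 0.26 for Col1a1. Astrocyte and Bergmann glia markers were at -0.035 (Slc1a3), 0.081 (Aqp4) and 0.12 (Gjb6). Oligodendrocyte markers were at 0.080 (Mbp) and -0.25 (Cldn11). Endothelial markers were at 0.21 (Ly6c1) and -0.11 (Cldn5), and blood cell markers at 0.058 (Hbb-bs), 0.13 (Hba-a1) and -0.61 (Hba-a2). Granule cell markers were at -0.064 (Gabra6), -0.093 (Cbln3) and -0.21 (Fat2), and Purkinje cell markers at 0.095 (Car8), 0.097 (Itpr1) and 0.19 (Pcp2).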
